A study of Mus musculus with 20 samples.

Results

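The comparison of wild-type BioNICD with the DEP mutant of BioNICD rests on 4 of the 20 RNA-seq samples of the series, 2 per form, chosen by their titles. BioNICD is a Notch intracellular domain (NICD) with a tag that a biotin ligase can modify. All 4 samples are E2-10HA cells, a mouse hybridoma that the labels call mature T cells, and all 4 carry the plasmid pLXSP-BirA, which encodes the bacterial biotin ligase BirA. The wild-type samples also carry pMY-BioNICD-IRES-GFP (n = 2). The mutant samples carry pMY-BioNICD-DEP-IRES-GFP instead (n = 2). Cells were selected with histidinol and by sorting and were left untreated. The labels do not spell out what DEP stands for or changes, and they do not say which Notch paralogue the NICD came from. Each form is represented by 1 infected line, so the construct, its level and the line itself cannot be told apart. Nothing in the labels makes the replicates separate cultures. The p-values therefore cover the spread between these 4 and the NICD-ER samples alone, and that spread may be technical. The series also holds cells with guides against the H2A.Z histone genes H2afv and H2afz (n = 6). They enter only the scaling and the fits over all 20 samples. Values of 3 other groups of the same hybridoma are given for orientation. NICD-ER cells, in which NICD is fused to an estrogen receptor domain, were treated for 24 hours with 4-hydroxytamoxifen (4-OHT, n = 2) or with ethanol (n = 2), and CRISPR control cells carried an empty guide vector (n = 6).

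Notch is a cell surface receptor. After it binds a ligand on a neighbouring cell it is cleaved, and the released intracellular domain enters the nucleus, where it joins the DNA-binding protein RBPJ and a Mastermind coactivator and replaces corepressors at target genes. In T cells the pathway is known for driving T lineage commitment in the thymus, for target genes such as Hes1, Dtx1 and Il2ra, and, when overactive, for T cell leukaemia.

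Wild-type samples held 48238324 and 23081893 counts over genes and DEP samples held 16371601 and 20725062. Levels are given in CPM, that is counts scaled by library size and TMM factors over all 20 samples. They can be compared between samples for 1 gene but not between genes of different length. Replicates of a form differed by more than sampling noise, with a mean chi-square per gene of 2.66 between the wild-type samples and 3.2 between the DEP samples, where sampling noise alone gives about 1. Of 10 T cell markers measured, 9 were above 1 CPM in both forms, the exception being Cd5. Their summed level was 4681 to 4684 CPM in wild type and 4349 to 4539 CPM in DEP. Among the coreceptors, Cd8a had 0 counts in all 4 samples and Cd4 averaged 2.07 CPM in wild type and 1.67 CPM in DEP.

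Notch1, the gene whose counts mark the construct, was lower with the wild-type form. Its exons (mm9 chromosome 2, 26313422 to 26359342, minus strand, 34 exons counted) gave 290.0 and 274 CPM in wild type, against 658 and 628 CPM in DEP. The groups did not overlap, and all 4 samples were far above the 0.913 to 2.75 CPM of the CRISPR controls. By edgeR's quasi-likelihood test, used throughout, the log2 fold change of wild type over DEP came to -1.20 (SE 0.0377, adjusted p = 2.69e-18), so DEP cells held 2.31 times as much Notch1 RNA. Counts over the whole gene do not separate construct from endogenous RNA. The part of the Notch1 level in the differences described next was not tested.

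Of 12499 genes tested, 8194 (65.6%) differed between wild type and DEP at an adjusted p under 0.05. In wild type 3999 genes were higher (32%) and 4195 were lower (33.6%), and 8148 of the called genes had groups that did not overlap, as had 10047 of all genes tested (80.4%). Of the genes tested, 435 reached the filter on low counts only with the wild-type samples, and a gene of that kind has its direction fixed by the filter. Among the other 12064 genes, 30.2% were higher and 34.8% lower. Most of these differences were small, since 5022 of the called genes differed by less than 1.5-fold. Large differences ran mostly in 1 direction. At least 2-fold, 1390 genes (11.1% of those tested) were higher in wild type and 432 (3.46%) were lower. Of the 12064 genes whose direction the filter did not fix, 1038 were at least 2-fold higher. At least 8-fold the counts were 591 higher and 27 lower, and these were not split by the filter. The median log2 fold change over all genes tested was -0.02. Counts of list members below are to be read against the 32% higher and 33.6% lower among all genes tested.

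**Figure D1:**
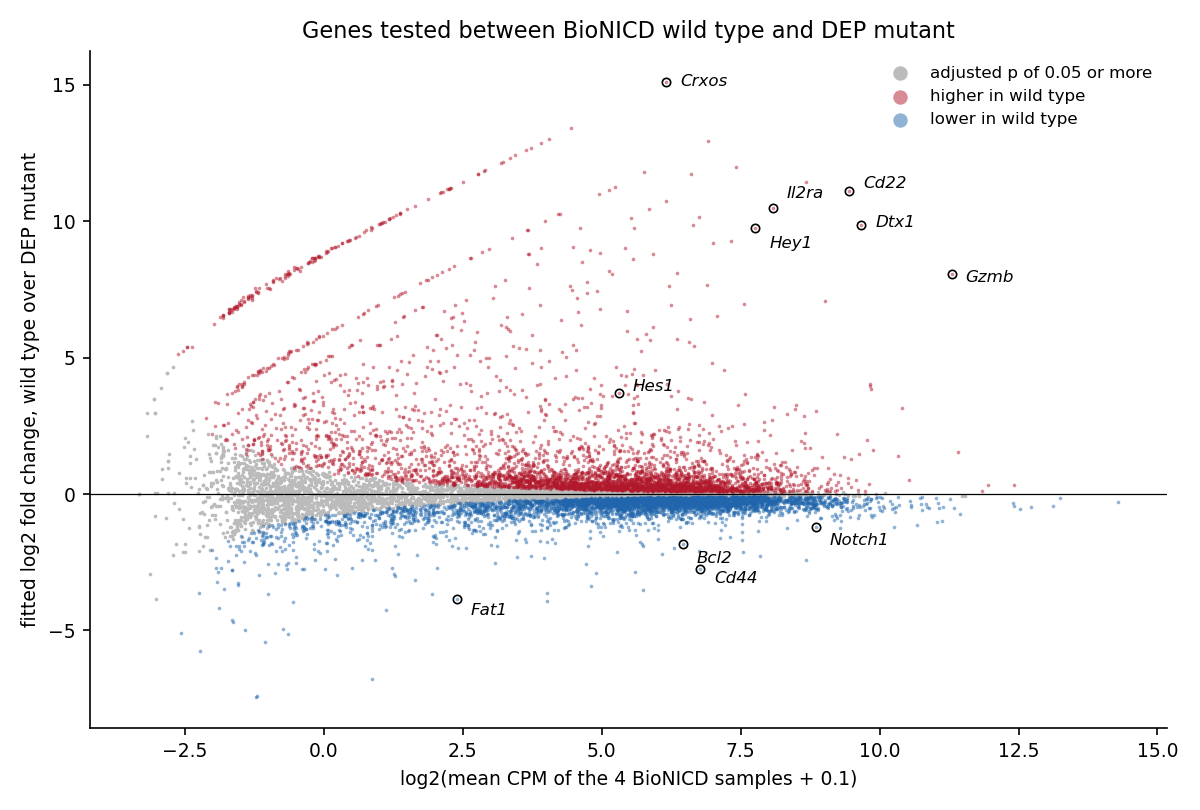
Fitted log2 fold change of wild type over DEP (vertical axis) against the log2 of the mean CPM of the 4 BioNICD samples plus 0.1 (horizontal axis), with 1 point for each of the 12499 genes tested. Red points were higher and blue points lower in wild type at an adjusted p under 0.05, and the slanted bands at the upper left are genes with 0 or very few counts in DEP, whose fitted values depend on the prior count. Dtx1, Gzmb and Il2ra lie at 9.86, 8.05 and 10.50 while Fat1, the lowest gene with a name in the plot, lies at -3.86.

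Many of the higher genes were close to silent in DEP. In both DEP samples 162 of the 1390 genes had 0 counts, and 26 of these reached 5 CPM or more in wild type. A wider set of 177 genes stood under 1 CPM in DEP and at 5 CPM or more in wild type, whereas 3 genes showed the reverse. The 162 and the 177 genes include some, Crxos among them, whose direction the filter on low counts fixed. The mean of the CRISPR controls lay nearer to DEP than to wild type for 1315 of the 1390 higher genes (94.6%), on the scale of log2(CPM + 0.1). For the 432 lower genes the control mean lay nearer to DEP for 257 (59.5%) and nearer to wild type for 175. The contrast was smaller against NICD-ER cells with ethanol. Their mean lay nearer to DEP for 1096 of the higher genes (78.8%) and for 303 of the lower genes (70.1%). These shares describe where the controls lie and carry no test.

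The 3 markers named for this comparison were all far higher in wild type. Dtx1 encodes Deltex1, a Notch-binding ubiquitin ligase and direct Notch target (mm9 chromosome 5, 121130273 to 121161678). Its level was 1643 and 1615 CPM in wild type, against 1.59 and 1.83 CPM in DEP. Both DEP samples lay slightly above the 0 to 0.412 CPM of the controls and far below wild type. The log2 fold change reached 9.86 (SE 0.0695, adjusted p = 1.82e-30). Il2ra, the alpha chain of the high-affinity receptor for interleukin 2 (chromosome 2, 11564419 to 11614821), stood at 549.7 and 534 CPM in wild type and at 0.472 and 0.282 CPM in DEP. The DEP level thus rested on 8 and 6 counts, and the log2 fold change was 10.50 (SE 0.0861, adjusted p = 2.62e-29). Gzmb encodes granzyme B, a protease of cytotoxic granules (chromosome 14, 56877695 to 56881097). It held 4959 and 5059.6 CPM in wild type, against 19.1 and 18.3 CPM in DEP and 1.46 to 4.98 CPM in the controls. In the wild-type samples 0.511% to 0.524% of all counts came from this gene, and the log2 fold change reached 8.05 (SE 0.051, adjusted p = 3.46e-31).

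Canonical Notch targets did not move as a block. Of 22 genes on the list, 15 were tested, and 8 were higher and 5 lower in wild type, with 6 and 1 of them at least 2-fold. The share lower was thus close to the 33.6% of all genes tested, and the share higher compares with 32%. The median log2 fold change of the 15 was 0.44. With all 20 samples in the fit, 2 of them were lower. Hey1, a transcriptional repressor of the Hes and Hey family, stood at 435 and 433 CPM in wild type and 0.236 and 0.705 CPM in DEP (log2 fold change 9.74, SE 0.111, adjusted p = 1.06e-26). Hes1, the best known member of that family, stood at 71.2 and 75.2 CPM in wild type and at 5.84 and 5.35 CPM in DEP (log2 fold change 3.69, SE 0.0847, adjusted p = 6.02e-21). Both DEP samples lay above the 0.094 to 2.56 CPM of the controls for Hes1, while for Hey1 1 of them lay within the 0 to 0.263 CPM of the controls. Nrarp, a small feedback inhibitor of the Notch complex, had 2.01 and 1.80 CPM in wild type and 0 counts in both DEP samples, which makes it at least 24.8-fold higher in wild type against a floor of 3 counts over the DEP group. Bcl6, a transcriptional repressor, averaged 33.6 ± 0.302 CPM in wild type and 3.84 ± 0.421 CPM in DEP (SD, n = 2 each).

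Other listed targets were lower or nearly level. Myc, a growth-promoting transcription factor and a direct Notch target in T cell leukaemia, was lower in wild type, at 132 and 128 CPM against 247 and 229 CPM in DEP (log2 fold change -0.89, SE 0.0388, adjusted p = 1.78e-15). Bcl2, which blocks apoptosis, was also lower, at 40.7 and 37.8 CPM in wild type against 135 and 139 CPM in DEP (log2 fold change -1.82, SE 0.05, adjusted p = 2.14e-19). Neither gene's groups overlapped. The controls averaged 182 CPM for Myc. For Bcl2 they fell on both sides of wild type, at 21.2 and 23.3 CPM in control replicates 1 and 2 and at 65 to 77.5 CPM in the other 4. Tcf7, Gata3 and Runx1, which encode transcription factors of the T lineage, were lower by 0.28, 0.21 and 0.20 on the log2 scale, and missed the threshold with all 20 samples in the fit (adjusted p = 0.0734 to 0.447). Ccnd3 and Cdkn1a, a D-type cyclin and a cyclin-dependent kinase inhibitor, were higher by 0.44 and 0.80. Lfng, a fringe glycosyltransferase, and Ccnd1, a D-type cyclin, did not pass the test, with log2 fold changes of -0.05 (SE 0.071, adjusted p = 0.579) and 0.09 (SE 0.259, adjusted p = 0.774). The 7 listed genes that were not tested for lack of counts were Hes5, Hey2, Heyl, Notch3, Ptcra, Igf1r and Il7r, and of these Hey2 and Heyl had 0 counts in all 4 samples.

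**Figure D2:**
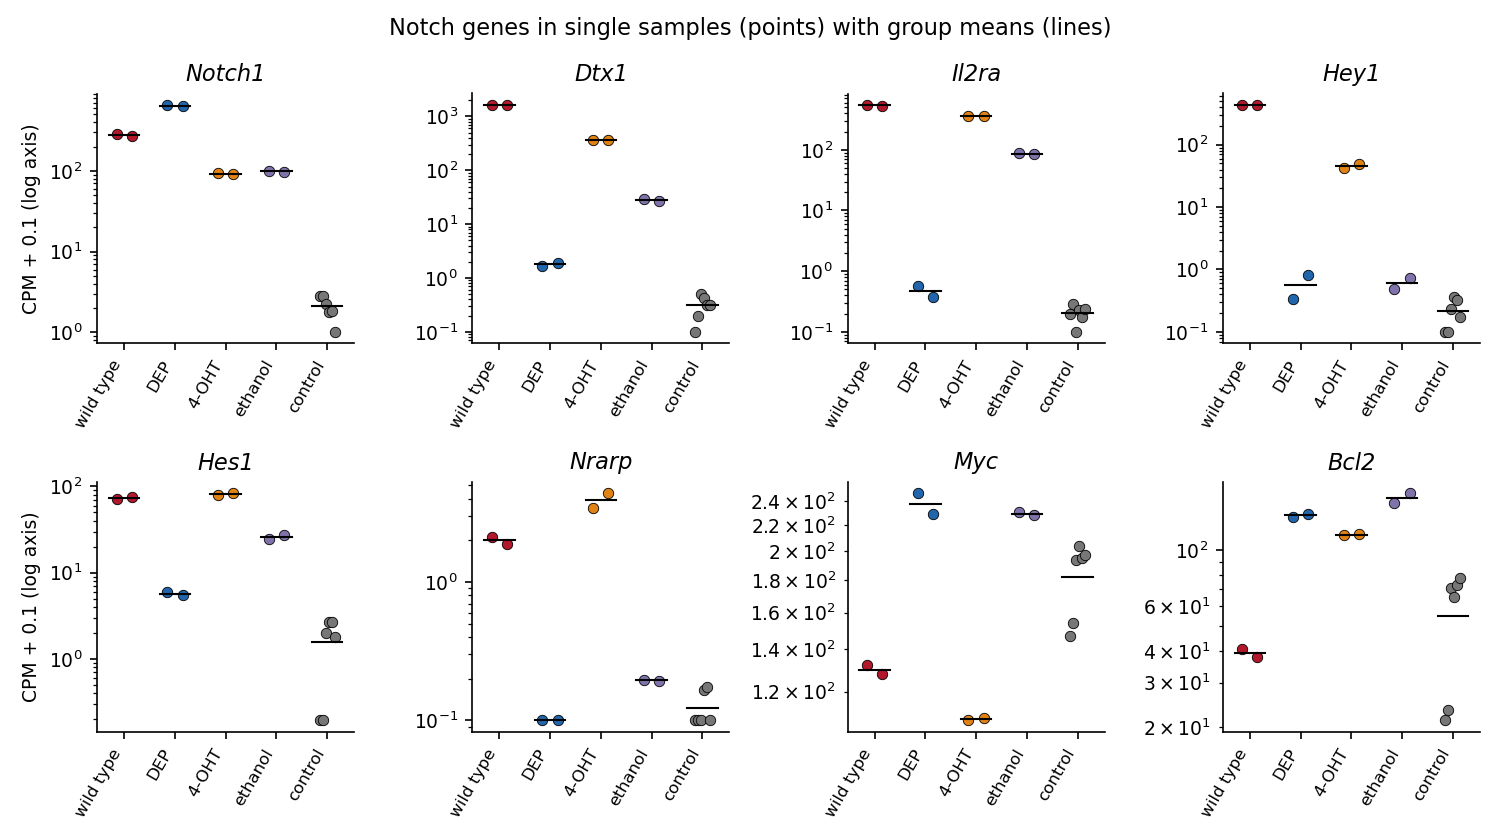
Level of 8 Notch genes in CPM plus 0.1 (logarithmic vertical axes) in each sample of BioNICD wild type, BioNICD DEP mutant, NICD-ER with 4-OHT, NICD-ER with ethanol and CRISPR control, with points for samples and lines for group means. Dtx1, Il2ra, Hey1, Hes1 and Nrarp are higher in both wild-type samples than in both DEP samples, while Notch1, Myc and Bcl2 are lower.

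Genes that act upstream of or together with NICD were counted in separate lists. Among 10 receptors, ligands and fringes tested, 4 were higher and 2 lower in wild type, against 32% and 33.6% of all genes tested. The median log2 fold change of the 10 was 0.05. Besides Notch1, the lower gene was Notch4, at 1.73 and 2.30 CPM in wild type and 2.65 and 3.85 CPM in DEP (log2 fold change -0.79, SE 0.218, adjusted p = 0.00304). Notch2, a second Notch receptor, was higher by 0.33 (233 and 232 CPM in wild type, 179.6 and 185 CPM in DEP), and the ligand gene Jag1 by 0.65. Dll1, which encodes a Delta-like ligand, had 0 counts in the 4 samples. Notch4 missed the threshold without wild-type replicate 1 (adjusted p = 0.091) or DEP replicate 2 (adjusted p = 0.164), and Jag1 without wild-type replicate 1 (adjusted p = 0.0834) or with all 20 samples (adjusted p = 0.103). Without wild-type replicate 1, the counts of this list were 2 higher and 1 lower.

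Of 26 genes for Notch processing and turnover, 11 were higher (42.3%) and 5 lower (19.2%), against 32% and 33.6% of all genes tested. Apart from Dtx1, the largest differences were in Furin, Dtx3l and Dtx4. Furin, the protease that cleaves the Notch receptor on its way to the surface, stood at 643 and 638 CPM in wild type and 75.8 and 69 CPM in DEP (log2 fold change 3.13, SE 0.0423, adjusted p = 2.26e-25). Both wild-type samples were above both DEP samples and above the control mean of 57.5 CPM. Dtx3l and Dtx4, ubiquitin ligases of the Deltex family, were higher by 2.24 and 1.77. Mib2, a ubiquitin ligase that acts on Notch ligands, was lower by 0.61.

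Of 18 RBPJ coactivator genes, RBPJ included, 7 were higher and 7 lower in wild type, near the shares of 32% and 33.6% among all genes tested, with a median of 0.07. Rbpj itself was lower, at 36.5 and 37 CPM in wild type against 53.8 and 53.5 CPM in DEP (log2 fold change -0.57, SE 0.0551, adjusted p = 4.22e-09). Maml2, 1 of 3 Mastermind coactivators, was near silent in DEP, with 3 counts in all. Its pooled level in wild type was 14.7 times that in DEP (95% counting interval 4.87 to 72.8). Maml2 reached the filter on low counts only with the wild-type samples, which fixed its direction. Of the other 17 genes, 6 were higher and 7 lower. Maml1 was higher by 0.12 (adjusted p = 0.0392), and Maml3 had a log2 fold change of 0.14 that did not pass the test (SE 0.0697, adjusted p = 0.0757). The histone acetyltransferase gene Ep300 was lower by 0.13. Ep300 missed the threshold without any 1 of the 4 BioNICD samples (adjusted p = 0.0548 to 0.116), and Maml1 without wild-type replicate 1, DEP replicate 1 or DEP replicate 2 (adjusted p = 0.0848 to 0.182). Of 22 corepressor genes, 6 were higher and 11 lower, with a median of -0.10. In the fit of all 20 samples, 3 coactivator genes were higher and 2 lower, and 6 corepressor genes were lower. Tle3, a Groucho-family corepressor, and L3mbtl3, an RBPJ-binding partner, were higher by 0.85 and 0.83. Tbl1xr1 and Sap30, parts of histone deacetylase complexes, were lower by 0.63 and 0.74. Spen, which bridges RBPJ and the NCoR complex, did not pass the test (log2 fold change -0.05, SE 0.0469, adjusted p = 0.326).

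The 12 genes with the largest fitted increase, among genes of at least 5 CPM in wild type, were Crxos, Adam19, Slit3, Blk, Cd244, Dcdc2c, Csn1s1, Iqsec3, Vwa5b1, Serpina3g, Gzmg and Prf1. For 10 of these 12 both DEP samples had 0 counts, so the difference is given as a lower bound. All but Prf1 reached the filter on low counts only with the wild-type samples, which fixed their direction. Crxos stood at 139 and 146 CPM in wild type, which is at least 1798-fold higher than in DEP, and it had 0 counts in every control. It is annotated beside Crx, a homeobox gene on the opposite strand, which had 8 and 1 counts in wild type and 0 and 1 in DEP. Adam19, a membrane metalloprotease, stood at 44.9 and 41.8 CPM in wild type (at least 559.7-fold higher). Slit3, a secreted guidance protein, stood at 33 and 32.5 CPM (at least 418-fold higher), and Cd244, a SLAM-family receptor of cytotoxic cells, at 28 and 31.2 CPM (at least 370.2-fold higher).

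The remaining bounds were 337-fold for Dcdc2c, 316-fold for the casein gene Csn1s1, 281-fold for Iqsec3, 258-fold for Vwa5b1, 232-fold for the protease inhibitor gene Serpina3g and 228-fold for the granzyme gene Gzmg. These 6 genes ranged over 17.6 to 26.4 CPM in the wild-type samples. None of the 6 exceeded 0.0796 CPM in the group means of NICD-ER cells or controls. Serpina3g and Gzmg belong to families of near-identical genes, and their single values are uncertain. Blk, a SRC-family kinase best known from B cells, stood at 242 and 239 CPM in wild type with 1 count in DEP, which makes the pooled ratio 9221 (95% counting interval 1655 to 364235).

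The 12 genes with the largest decrease were taken among genes of at least 5 CPM in DEP with groups that did not overlap. They were 1500009L16Rik, Fat1, Trat1, Ccr2, 5830411N06Rik, Galnt3, Ptgds, Adam12, Clec4e, Cd44, Nrp1 and Papln, with log2 fold changes between -3.91 and -2.58. All 12 were still counted in wild type. Without these limits the lowest log2 fold change was -7.44, and 4 called genes had 0 counts in both wild-type samples. Cd44, the adhesion receptor for hyaluronan, had 28.9 and 28.8 CPM in wild type and 193 and 185 CPM in DEP (log2 fold change -2.73, SE 0.0441, adjusted p = 6.70e-24). The controls, at 173 to 261 CPM, lay with DEP. Fat1, an atypical cadherin, had 0.643 and 0.711 CPM in wild type and 9.61 and 9.58 CPM in DEP (log2 fold change -3.86, SE 0.169, adjusted p = 1.95e-15). Here the controls, at 0.188 to 0.843 CPM, lay with wild type. Ccr2, a chemokine receptor, likewise stood at 2.49 and 2.38 CPM in wild type, 27.9 and 31.1 CPM in DEP and 3.16 CPM on average in the controls. Trat1, an adaptor of the T cell receptor complex, had 0.603 and 0.418 CPM in wild type and 7.67 and 6.29 CPM in DEP. Nrp1, a coreceptor for semaphorins, Galnt3, a glycosyltransferase, and Ptgds, a prostaglandin D synthase, were lower by 2.71, 3.38 and 3.14.

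Cytotoxic granule genes were mostly higher in wild type. Of 20 tested, 17 were higher (15 at least 2-fold) and 1 lower in wild type, and the median log2 fold change was 7.08. The filter on low counts fixed the direction of 5 of them, which reached it only with the wild-type samples. Of the other 15, 12 were higher (80.0%) and 1 lower, 10 of the higher ones at least 2-fold, with a median of 3.07. With the 5 members that had 0 counts in DEP set at their lower bounds, the median was 4.52. Prf1, the pore-forming protein perforin, stood at 346 and 334 CPM in wild type and 0.059 and 0.0939 CPM in DEP, where it had 3 counts in all. The pooled ratio was 4362 (95% counting interval 1492 to 21153). Gzma, granzyme A, stood at 990.3 and 1063 CPM in wild type and 6.96 and 8.08 CPM in DEP, and the controls, at 12.6 to 51 CPM, were above DEP. Nkg7, a granule membrane protein, had 93.5 and 97.1 CPM in wild type and 0.177 and 0.047 CPM in DEP. Serpinb6b, a granzyme-type protease inhibitor, had 317 and 320.1 CPM in wild type and 0.531 and 0.470 CPM in DEP. Neither of these genes' groups overlapped. Gzmk was at least 27.5-fold higher. Lamp1, a lysosomal membrane protein used as a marker of granule release, was the lower member, at 164 and 163 CPM in wild type and 229.6 and 235 CPM in DEP (log2 fold change -0.53, SE 0.0357, adjusted p = 7.53e-12). Granzyme genes resemble each other, and reads shared between them could be divided or lost.

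The promoter of Prf1 is shown because it belongs to a strongly raised gene and holds a match to the RBPJ motif GTGGGAA. The bases run from 250 before to 50 after the annotated start in RefSeq, build GRCm38.p6, at chr10:61297586-61297885 on the plus strand, and capitals mark the match, which begins 143 bases before the start.
Prf1: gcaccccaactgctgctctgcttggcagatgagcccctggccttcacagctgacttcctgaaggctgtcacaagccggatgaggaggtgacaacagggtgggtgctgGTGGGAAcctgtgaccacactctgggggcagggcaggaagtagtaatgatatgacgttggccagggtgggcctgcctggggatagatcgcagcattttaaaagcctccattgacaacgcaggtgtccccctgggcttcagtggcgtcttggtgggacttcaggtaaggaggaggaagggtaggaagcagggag
Searched on both strands, GTGGGAA was present in 7.25% of all 27025 promoters of the table, in 7.17% of the 9419 promoters of genes tested, in 7.68% of 1003 promoters of genes at least 2-fold higher and in 6.31% of 317 promoters of genes at least 2-fold lower. Its share among the strongly higher genes was thus close to that of all genes tested. The shorter TGGGAA, which every GTGGGAA match also contains, was present in 32.8%, 26.2% and 26.4% of the promoters of higher, lower and all tested genes. Of 17 canonical Notch targets with a promoter in the table, 3 held GTGGGAA. A match is only a run of letters in this window and says nothing of binding.

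Cytokine genes followed the granule genes. Of 19 cytokines and chemokines tested, 15 were higher and 2 lower in wild type, 11 of the higher ones at least 2-fold, with a median log2 fold change of 1.57. Again 4 of them reached the filter only with the wild-type samples. Of the other 15, 11 were higher and 2 lower, 7 of the higher ones at least 2-fold, with a median of 0.65. With the 4 members at 0 counts in DEP set at their bounds, the median was 1.06. Il10, an anti-inflammatory cytokine, stood at 194 and 205 CPM in wild type and 0.236 and 0.188 CPM in DEP (log2 fold change 9.85, SE 0.123, adjusted p = 4.01e-25). Ifng, interferon gamma, stood at 52 and 57.8 CPM in wild type and at 0 and 0.188 CPM in DEP (log2 fold change 8.96, SE 0.223, adjusted p = 3.02e-20). All 6 controls had 0 counts of Ifng and of Il10. Il22, an epithelial defence cytokine, averaged 44.6 ± 0.196 CPM in wild type, with 3 counts in DEP and a pooled ratio of 569.8 (95% counting interval 195 to 2764). Il6 and Il4 had 0 counts in DEP and were at least 121-fold and 39.3-fold higher in wild type. Tnfsf11, the ligand RANKL, was lower by 0.88 (1.51 CPM in wild type and 2.98 CPM in DEP on average), with an adjusted p of 0.2 in the fit of all 20 samples. Il2, the interleukin 2 gene, was too low to test, with a mean of 0.0201 CPM in wild type and 0 counts in DEP.

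The receptors and kinases that read such cytokines were higher throughout the list. All 11 tested common gamma-chain receptor and JAK genes were higher in wild type, 6 of them at least 2-fold, with a median of 1.5, and 1 of the 11, Il21r, reached the filter only with the wild-type samples. Il2ra, given above, led the list. Il2rb, the beta chain of the interleukin 2 and 15 receptors, stood at 185 and 187 CPM in wild type and 4.30 and 3.48 CPM in DEP (log2 fold change 5.58, SE 0.0751, adjusted p = 2.17e-25). Il2rg, the shared gamma chain, stood at 290.4 and 288 CPM in wild type and at 159.9 and 144 CPM in DEP (log2 fold change 0.91, SE 0.0515, adjusted p = 2.41e-13). All 3 chains of the interleukin 2 receptor were therefore higher in wild type, by very different amounts. Il21r had 1 count in DEP and a pooled ratio of 955 (95% counting interval 171 to 37736). Il4ra, Il15ra and Jak3, the kinase bound to the gamma chain, were higher by 3.29, 4.42 and 1.5.

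Among STAT factors and SOCS feedback genes, 10 of 17 were higher (58.8%) and 3 lower (17.6%), with a median of 0.67. Among all genes tested, 32% were higher and 33.6% lower. Stat3 and Stat6 were higher by 1.67 and 1.51. Socs3 and Socs1, inhibitors of JAK signalling that STAT factors induce, were higher by 6.69 and 2.43. Socs3 stood at 46.7 and 47.2 CPM in wild type and 0.531 and 0.376 CPM in DEP. Stat4 did not pass the test, at a log2 difference of -0.03 (SE 0.0365, adjusted p = 0.551), and Socs7 was lower by 0.33 (adjusted p = 0.105 with all 20 samples in the fit).

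Interferon-stimulated genes were higher almost without exception. Of 33 tested, 32 were higher in wild type, 27 of them at least 2-fold, and 1 was lower, with a median log2 fold change of 2.72. Of the 31 that did not depend on the wild-type samples to pass the filter, 30 were higher. The other 2, Ifi44 and Oas1a, had their direction fixed by the filter. Ifi44 had 28.8 and 30.7 CPM in wild type and 2 counts in DEP, a pooled ratio of 563 (95% counting interval 156 to 4651). Gbp2, a guanylate-binding protein induced by interferon gamma, stood at 150.3 and 143 CPM in wild type and 0.944 and 0.564 CPM in DEP (log2 fold change 7.62, SE 0.118, adjusted p = 3.40e-24). Isg15, a ubiquitin-like antiviral protein, stood at 70.5 and 76.1 CPM in wild type and at 2.95 and 2.72 CPM in DEP (log2 fold change 4.67, SE 0.0987, adjusted p = 1.19e-21). For both genes DEP lay within or near the range of the controls, 0.197 to 1.03 CPM for Gbp2 and 1.83 to 3.28 CPM for Isg15. Rtp4 and Gbp3 were higher by 7.61 and 5.97, and Oas1a had a pooled ratio of 127 (95% counting interval 34.9 to 1049). Irf7 and Irf9, transcription factors of the interferon response, were higher by 2.65 and 2.51. Usp18, a protease that removes Isg15 from proteins and restrains interferon receptor signalling, was the lower member, at 21.5 and 21.2 CPM in wild type and 32.1 and 35.7 CPM in DEP (log2 fold change -0.69, SE 0.0689, adjusted p = 7.53e-09). With all 20 samples in the fit, the adjusted p of Usp18 was 0.36. Oas, Gbp and Ifit genes have close relatives, and their single values are less certain than the count over the list.

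Promoters of this list often held a pair of GAAA elements of the kind bound by interferon-regulated factors. The motif, GAAA followed by any 2 bases and a second GAAA, was searched on both strands. It was added after expression values had been seen and was present in 13 of the 23 list members with a promoter in the table (56.5%). Its share was 3.99% of all promoters, 3.80% of those of genes tested, 9.67% of those of genes at least 2-fold higher and 2.84% of those of genes at least 2-fold lower. The promoters of Isg15 and Gbp2 are shown as examples, Isg15 for its 3 overlapping matches and Gbp2 for its single match near the start. Both come from RefSeq, build GRCm38.p6, and run from 250 bases before to 50 after the start, at chr4:156200769-156201068 on the minus strand for Isg15 and chr3:142620413-142620712 on the plus strand for Gbp2. Capitals mark the matches, which begin between 78 and 66 bases before the start in Isg15 and 59 bases before it in Gbp2, where the match is on the opposite strand.
Isg15: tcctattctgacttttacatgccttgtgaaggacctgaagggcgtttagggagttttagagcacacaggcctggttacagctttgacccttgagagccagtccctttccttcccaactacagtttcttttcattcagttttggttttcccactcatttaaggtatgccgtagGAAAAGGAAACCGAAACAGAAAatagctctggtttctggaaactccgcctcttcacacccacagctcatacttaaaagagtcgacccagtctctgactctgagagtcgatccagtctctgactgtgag
Gbp2: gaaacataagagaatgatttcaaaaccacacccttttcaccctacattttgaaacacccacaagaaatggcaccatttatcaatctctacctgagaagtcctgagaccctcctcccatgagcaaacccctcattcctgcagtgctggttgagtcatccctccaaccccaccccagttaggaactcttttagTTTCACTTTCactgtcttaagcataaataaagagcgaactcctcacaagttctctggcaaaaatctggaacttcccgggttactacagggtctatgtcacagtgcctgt

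MHC class I presentation genes, many of which interferon also induces, were higher as well. Of 17 tested, 15 were higher (14 at least 2-fold) and 2 lower, with a median of 1.37. Nlrc5, the transcriptional activator of this pathway, stood at 150.1 and 142 CPM in wild type and 15.3 and 17.5 CPM in DEP (log2 fold change 3.13, SE 0.069, adjusted p = 2.67e-21). B2m, the light chain of class I molecules, stood at 3963 and 4137 CPM in wild type and 1414 and 1322 CPM in DEP (log2 fold change 1.55, SE 0.0392, adjusted p = 4.04e-20). Tapbpl, H2-T23, Psmb10 and Psmb9, which cover peptide editing, a nonclassical class I molecule and immunoproteasome subunits, were higher by 3.59, 2.49, 2.21 and 1.89. Pdia3, a chaperone of the endoplasmic reticulum, was lower by 0.25 (adjusted p = 0.0937 with all 20 samples in the fit).

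**Figure D3:**
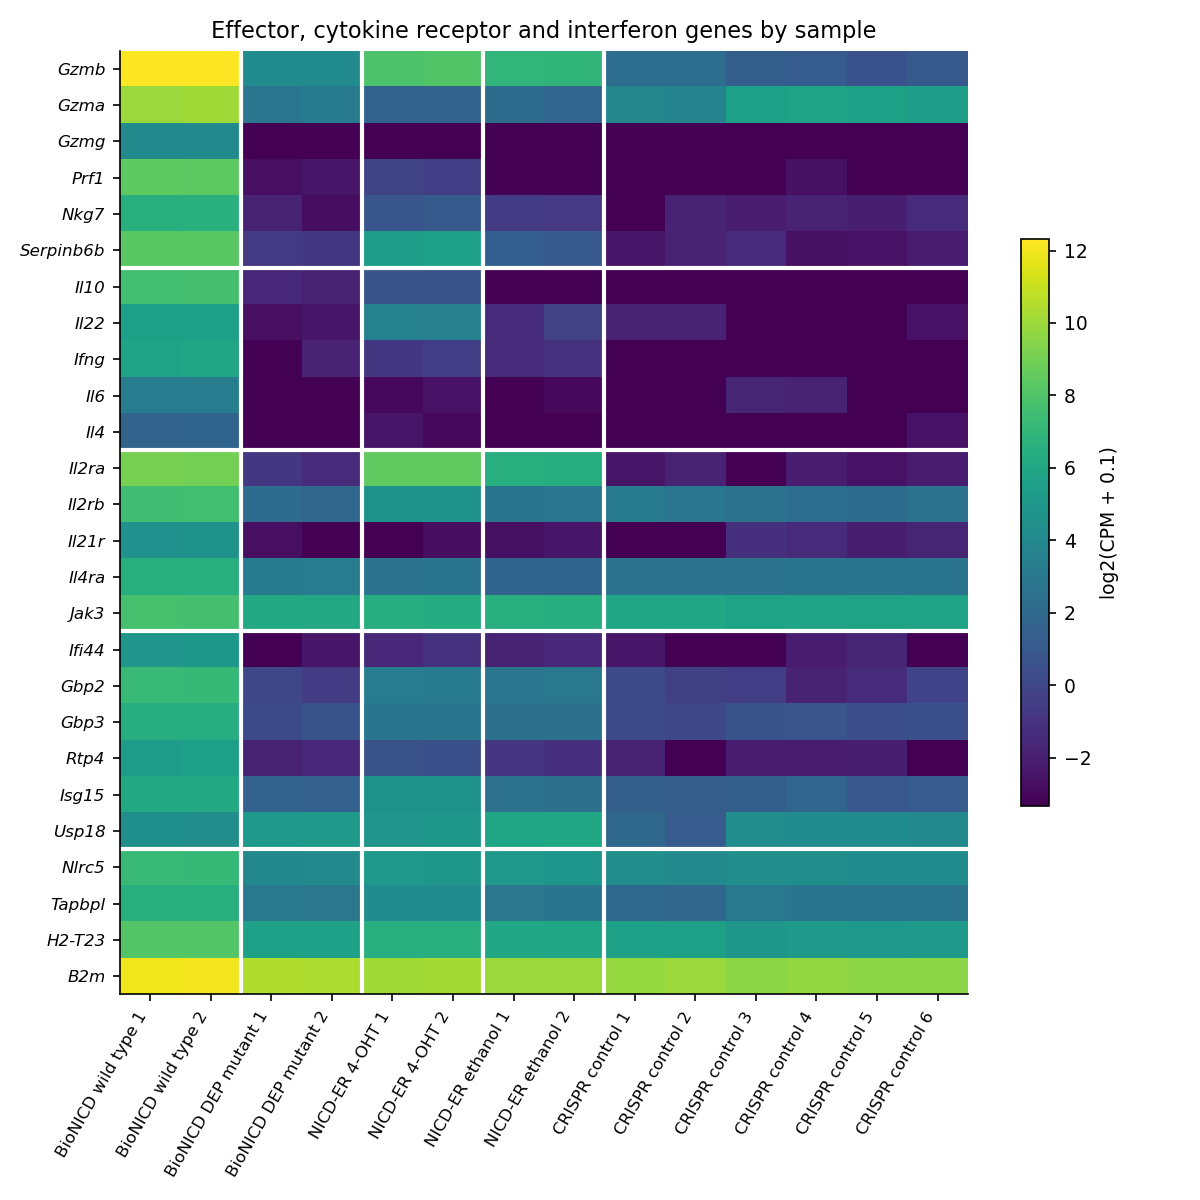
Level of 26 effector, cytokine, cytokine receptor, interferon and MHC class I genes (rows) in 14 samples (columns), as log2(CPM + 0.1) on the colour scale. Both wild-type samples stand above both DEP samples in every row except Usp18, which is lower in wild type.

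Receptor and signalling genes of T cells shifted towards higher levels with named exceptions. Of 25 genes of the T cell receptor complex and its signalling, 17 were higher (68%) and 4 lower (16%), against 32% and 33.6% of all genes tested. At least 2-fold, 7 of them were higher, and the median was 0.31. Prkcq, a kinase downstream of the receptor, stood at 13.2 and 12.7 CPM in wild type and 1.24 and 0.892 CPM in DEP. Lck and Fyn, SRC-family kinases, were higher by 1.44 and 1.27. The lowest member was Trat1, given above. When all 20 samples shared the estimate of spread, 9 members were higher. Of 23 costimulatory and inhibitory receptors, 18 were higher and 2 lower, 14 of the higher ones at least 2-fold, with a median of 1.24. Of the 23, 2 passed the filter only with the wild-type samples. Of the other 21, 16 were higher (76.2%) and 2 lower (9.52%). Among all genes that did not depend on those samples the shares were 30.2% and 34.8%. Ctla4, an inhibitory receptor, had 0 counts in DEP and was at least 30.6-fold higher. Havcr2, which encodes the inhibitory receptor TIM-3, stood at 13.5 and 13.1 CPM in wild type and 0.236 and 0.611 CPM in DEP. Pdcd1, which encodes the inhibitory receptor PD-1, went the other way, at 129.9 and 128 CPM in wild type and 675 and 699.9 CPM in DEP (log2 fold change -2.43, SE 0.0394, adjusted p = 7.21e-24). The groups did not overlap for either gene, so inhibitory receptors differed in both directions.

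Chemokine receptors and adhesion genes were also mixed. Of 15 chemokine and related migration receptors, 9 were higher and 4 lower. Of the 14 that did not depend on the wild-type samples to pass the filter, 8 were higher (57.1%) and 4 lower (28.6%). Among all genes of that kind the shares were 30.2% and 34.8%. Gpr183, an oxysterol receptor, stood at 49.1 and 50.6 CPM in wild type and at 0.295 and 0 CPM in DEP (log2 fold change 8.51, SE 0.228, adjusted p = 1.22e-19). Ccr7, a lymph node homing receptor, was higher by 2.54, and Ccr2, given above, was lower by 3.61. Of 15 integrin and adhesion genes, 9 were higher and 2 lower. Itgb3 and Itgal, integrin chains, were higher by 1.62 and 1.42, and Cd44 was the most strongly lowered member.

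T lineage transcription factors included both large increases and decreases. Of 26 tested, 14 were higher and 7 lower, with a median of 0.76. Of the 25 that did not depend on the wild-type samples to pass the filter, 13 were higher (52%) and 7 lower (28%), with a median of 0.70. Among all genes of that kind the shares were 30.2% and 34.8%. Ets1, a transcription factor of mature lymphocytes, stood at 71.5 and 68.1 CPM in wild type and 0.236 and 0.235 CPM in DEP (log2 fold change 8.17, SE 0.155, adjusted p = 1.34e-22). Irf4 and Tbx21, factors of effector T cells, were higher by 3.99 and 2.47. Satb1, a chromatin organiser of thymocytes, was lower by 2.01, at 0.523 and 0.878 CPM in wild type and 2.54 and 2.58 CPM in DEP. Among 9 E protein, Id protein and ZEB genes, 4 were higher (44.4%) and 1 lower (11.1%), against 32% and 33.6% of all genes tested. Id2, an inhibitor of E proteins, stood at 405 and 430.1 CPM in wild type and 65.9 and 65.1 CPM in DEP (log2 fold change 2.65, SE 0.0409, adjusted p = 3.05e-24). The E protein genes Tcf12 and Tcf3 differed by 0.64 and -0.14, and Tcf3 missed the threshold without DEP replicate 1 (adjusted p = 0.0672).

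Proliferation genes were lower in wild type by small amounts. Of 25 genes of G2/M and mitosis, 23 were lower and 0 higher, none by 2-fold, with a median log2 fold change of -0.42 against -0.02 for all genes tested. The remaining 2 did not pass the test. Hmmr, a spindle protein, stood at 107 and 109.9 CPM in wild type and 171 and 170.0 CPM in DEP (log2 fold change -0.68, SE 0.0428, adjusted p = 2.06e-12). Cdk1, the mitotic kinase, stood at 175 and 171 CPM in wild type and at 255 and 268 CPM in DEP (log2 fold change -0.61, SE 0.036, adjusted p = 5.21e-13). Neither gene's groups overlapped. Top2a and Ccnb1, a topoisomerase and a mitotic cyclin, were lower by 0.54 and 0.53. Of 26 genes of G1/S and DNA replication, 17 were lower (65.4%) and 3 higher (11.5%), with a median of -0.22. Ccne2, a cyclin of S phase entry, was lower by 1.05, Rrm2, a subunit of ribonucleotide reductase, by 0.87, and Tyms, thymidylate synthase, was higher by 0.70 (adjusted p = 0.107 with all 20 samples in the fit). In the fit of all 20 samples, 8 of this list were lower. Among cyclins, CDKs and CDK inhibitors, 4 of 14 were higher (28.6%) and 5 lower (35.7%), near the 32% and 33.6% of all genes tested. The inhibitor genes Cdkn1a and Cdkn1b differed in opposite directions, by 0.80 and -0.68.

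Genes of growth and metabolism were lower on balance. Of 23 ribosome biogenesis genes, 19 were lower and 0 higher, with a median of -0.36. Gnl3, which encodes nucleostemin, stood at 62.8 and 61.7 CPM in wild type and 113 and 116 CPM in DEP (log2 fold change -0.90, SE 0.0426, adjusted p = 9.66e-15). Npm1, nucleophosmin, was lower by 0.58. Of 21 glycolysis genes, 16 were lower and 3 higher, with a median of -0.18, and Gpi1 and Aldoa were lower by 0.67 and 0.55 while Hk1, a hexokinase, was higher by 0.75. Aldoa missed the threshold with all 20 samples in the fit (adjusted p = 0.0539). With all 20 samples in the fit, 5 ribosome biogenesis and 6 glycolysis genes were lower.

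Cholesterol synthesis genes were lower in 16 of 23 cases and higher in 1, with a median of -0.50. Msmo1, a sterol oxidase, stood at 189 and 193 CPM in wild type and 454 and 449 CPM in DEP (log2 fold change -1.26, SE 0.0355, adjusted p = 3.37e-19). The groups did not overlap. Insig1, a sterol-sensing regulator of the pathway, was lower by 1.25. Ebp was the higher member, by 0.13, and missed the threshold without wild-type replicate 2, DEP replicate 1 or DEP replicate 2 (adjusted p = 0.0597 to 0.166). ATF4 and unfolded protein response genes were lower in 18 of 21 cases and higher in 1, with a median of -0.37. Atf4 itself stood at 463 and 475 CPM in wild type and 767 and 786 CPM in DEP (log2 fold change -0.75, SE 0.0368, adjusted p = 1.93e-14). Hsp90b1, a chaperone of the endoplasmic reticulum, and Trib3, an ATF4 target, were lower by 0.97 and 0.73. The higher member was Vldlr, with 1 count in DEP and a pooled ratio of 23.9 (95% counting interval 4.08 to 964). Vldlr reached the filter on low counts only with the wild-type samples, which fixed its direction. Of the other 20 genes, 18 were lower and 0 higher, with a median of -0.42. In the fit of all 20 samples 11 of the list were lower.

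Immediate early genes differed in both directions. Of 23 tested, 11 were higher (47.8%) and 9 lower (39.1%), against 32% and 33.6% of all genes tested. Egr1, a zinc finger factor, stood at 31.6 and 28.4 CPM in wild type and 7.31 and 4.98 CPM in DEP (log2 fold change 2.30, SE 0.126, adjusted p = 1.37e-13). Dusp1 and Dusp2, phosphatases that switch off MAP kinases, were higher by 1.97 and 3.82, while Dusp4, Dusp5 and Dusp6 of the same family were lower by 0.60, 0.39 and 0.56. Fos, a subunit of AP-1, was higher by 0.60 and its relative Fosb lower by 0.70. With all 20 samples in the fit Dusp5, Fos and Fosb missed the threshold (adjusted p = 0.063, 0.396 and 0.543). The 3 nuclear receptor genes Nr4a1, Nr4a2 and Nr4a3, which T cell receptor signals induce, were all lower, by 2.13, 2.37 and 1.59. Nr4a1 stood at 14.6 and 14.3 CPM in wild type and at 67.3 and 58.6 CPM in DEP. Of 17 NF-kB genes, 13 were higher (76.5%) and 1 lower (5.88%), with a median of 0.39. Bcl3, an atypical IkB protein, stood at 83.5 and 77.3 CPM in wild type and 3.83 and 5.92 CPM in DEP (log2 fold change 4.00, SE 0.0992, adjusted p = 2.70e-20). Nfkb1, which encodes the p105 subunit precursor, was higher by 0.96, and Traf1, a signalling adaptor, was lower by 0.55.

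Of 11 BCL2-family genes tested, 5 were higher (45.5%) and 4 lower (36.4%), against 32% and 33.6% of all genes tested. Beside the decrease of Bcl2, Mcl1, a second survival gene, was higher by 0.37, and the death-promoting genes Bmf and Bak1 were higher by 1.32 and 0.70 while Bbc3 and Bid were lower by 0.82 and 0.67. Bbc3 and Bid missed the threshold in the fit of all 20 samples (adjusted p = 0.209 and 0.0663). Of 13 p53 targets, 6 were higher (46.2%) and 4 lower (30.8%), and only the share lower was close to that among all genes. Of 20 genes for histone variants and H2A.Z exchange, 12 were lower and 3 higher, with a median of -0.18, and 6 were lower in the fit of all 20 samples. Anp32e, a chaperone that removes the histone variant H2A.Z, stood at 395 and 399.8 CPM in wild type and 757 and 773 CPM in DEP (log2 fold change -0.96, SE 0.0443, adjusted p = 5.11e-15). H2afv, 1 of the 2 genes for H2A.Z, was lower by 0.84, at 64.7 and 71.9 CPM in wild type and 118 and 122 CPM in DEP.

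**Figure D4:**
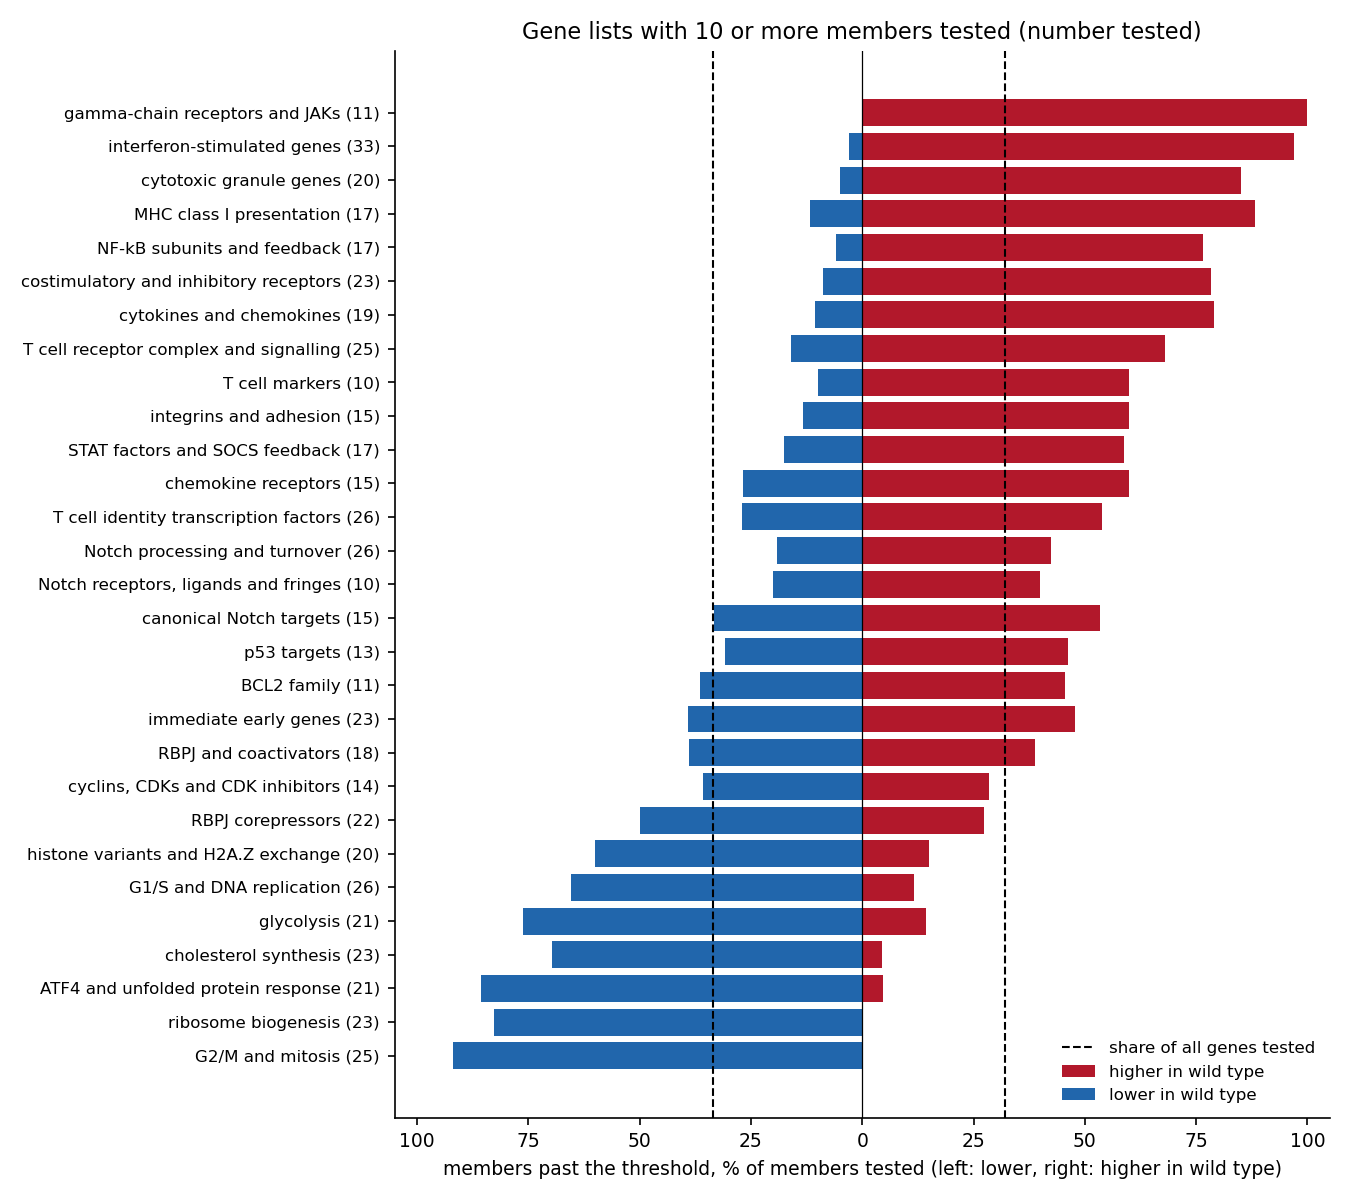
Share of tested members of each gene list that were higher (right, red) or lower (left, blue) in wild type than in DEP at an adjusted p under 0.05, for lists with 10 or more members tested. Members that passed the filter on low counts only with the wild-type samples are included. The dashed lines mark the shares among all genes tested, 32% higher and 33.6% lower. Gamma-chain, interferon and MHC class I lists lie furthest to the right and G2/M, ribosome biogenesis and unfolded protein response lists furthest to the left.

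Single markers of other cell types were far higher in wild type, without the rest of their lists. Cd22, an inhibitory receptor of B cells, stood at 1421 and 1372 CPM in wild type and 0.531 and 0.705 CPM in DEP (log2 fold change 11.09, SE 0.11, adjusted p = 1.16e-27). Together with Blk it made up nearly all of the summed level of the 8 B cell markers, 1611 to 1663 CPM in wild type and 0.649 to 0.939 CPM in DEP. The defining B cell genes Ms4a1 and Ebf1 had 0 counts in wild type, and Cd79a, Cd79b and Pax5 were under 1 CPM. Itgam, which encodes the integrin CD11b of myeloid cells, had 63 and 61.4 CPM in wild type and 0.177 and 0.0939 CPM in DEP (log2 fold change 8.83, SE 0.181, adjusted p = 6.41e-22). The other 10 of 11 myeloid markers, Lyz2, Csf1r and Adgre1 among them, were under 1 CPM in wild type, and the summed level was 62 to 63.8 CPM in wild type and 1.36 to 1.83 CPM in DEP. Of the 3 myeloid markers tested, Itgam was higher and Fcgr3 lower. Fcgr3 had 0.281 and 0.0837 CPM in wild type and 0.885 and 0.423 CPM in DEP (log2 fold change -1.55).

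Of 11 NK and innate lymphoid markers, Nkg7, Il2rb, Id2 and Ncr1 were tested and all 4 were higher, Ncr1 having passed the filter only with the wild-type samples. Ncr1, an activating receptor of NK cells, had 2.33 and 2.01 CPM in wild type and 0 counts in DEP and was at least 28.4-fold higher. The summed level of the list was 687 to 717 CPM in wild type and 68.7 to 70.6 CPM in DEP. The defining genes Klrb1c, Klra8, Klre1 and Eomes had 0 counts in wild type. Pdgfrb, a growth factor receptor of fibroblasts, stood at 113 and 117 CPM in wild type with 3 counts in DEP, a pooled ratio of 1459 (95% counting interval 499 to 7078), and Col1a2, Col3a1, Lum and Pdgfra had 0 counts in wild type. The summed fibroblast list, which holds Thy1, was 339 to 351 CPM in wild type and 328 to 329 CPM in DEP. Erythroid and megakaryocyte markers summed to 2.51 to 2.93 CPM in wild type and 2.11 to 2.30 CPM in DEP. In bulk RNA, fewer cells expressing a gene and less RNA per cell cannot be told apart.

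The NICD-ER cells offer a second contrast of NICD in the same hybridoma, and it shares no sample with the BioNICD comparison. Its ethanol samples stand apart from each other, with a mean chi-square per gene of 19.9 and with 2812 counts of Lars2 in replicate 1 and 89950 in replicate 2. They enter the shared estimate of spread, and without ethanol replicate 1 the BioNICD comparison called 8429 genes. In that contrast, 24 hours of 4-OHT against ethanol, 4521 of 12499 genes (36.2%) were called, 2376 higher (19%) and 2145 lower (17.2%). Higher in both contrasts were 1338 genes, 33.5% of the genes higher with wild-type BioNICD and 56.3% of those higher with 4-OHT. The matching shares of all genes tested were 19% higher with 4-OHT and 32% higher with wild-type BioNICD. Lower in both were 1294, which is 30.8% of the BioNICD and 60.3% of the NICD-ER list. Of all genes tested, 17.2% were lower with 4-OHT and 33.6% lower with wild-type BioNICD. In opposite directions, 380 genes were higher with wild-type BioNICD and lower with 4-OHT, and 549 were lower and higher. The 2 effects differed for 6438 genes (51.5%) in a test of the difference itself (5952 without ethanol replicate 1), with the BioNICD effect more positive for 3134 (25.1%) and more negative for 3304 (26.4%). Of the 1390 genes at least 2-fold higher with wild-type BioNICD, 532 were also higher with 4-OHT, 83 were lower and 775 were not called. With 4-OHT, 19% of all genes tested were higher and 17.2% lower. The 1390 include 352 genes that reached the filter only with the wild-type samples. For those, low counts in NICD-ER cells limited the NICD-ER test, so a missing call is not a measured lack of response.

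For the markers the difference was large. Gzmb had a log2 fold change of 8.05 in the BioNICD and 1.06 in the NICD-ER contrast, a difference of 6.99 (SE 0.0599, adjusted p = 2.75e-28). For Dtx1 the values were 9.86 and 3.68 (difference 6.18, SE 0.0917, adjusted p = 1.70e-23), and for Il2ra 10.50 and 2.05 (difference 8.44, SE 0.117, adjusted p = 5.95e-24). The starting levels were not the same, since ethanol-treated NICD-ER cells held 124 CPM of Gzmb, 28.3 CPM of Dtx1 and 86.2 CPM of Il2ra, against 18.7, 1.71 and 0.377 CPM in DEP. Hes1 differed less, at 3.69 and 1.66 (difference 2.04, SE 0.112, adjusted p = 5.80e-13, and 0.117 with all 20 samples in the fit), and its level with 4-OHT, 81.6 ± 2.04 CPM, was above the 73.2 ± 2.87 CPM of wild-type BioNICD (SD, n = 2 each). Myc was lower in both contrasts, by 0.89 and 1.08.

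Gene lists divided in the 2 contrasts. Interferon-stimulated genes had 32 of 33 members with a more positive BioNICD effect and 0 with a more negative one, although 18 of them were also higher with 4-OHT and 3 lower. Gbp2 rose by 0.35 with 4-OHT and Isg15 by 2.22. All 25 G2/M genes had a more negative BioNICD effect, and 22 of them were higher with 4-OHT. Top2a, for example, was lower by 0.54 with wild-type BioNICD and higher by 0.31 with 4-OHT (difference -0.86, SE 0.0522, adjusted p = 3.56e-12). In G1/S and DNA replication, 20 of 26 genes were higher with 4-OHT and 20 had a more negative BioNICD effect. Of the 11 gamma-chain and JAK genes, all 11 had a more positive BioNICD effect and 5 were higher with 4-OHT. Ribosome biogenesis and glycolysis genes were lower in both contrasts for most members, 17 of 23 and 17 of 21 with 4-OHT. The contrasts also differ in length of exposure and construct, which cannot be told apart here.

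**Figure D5:**
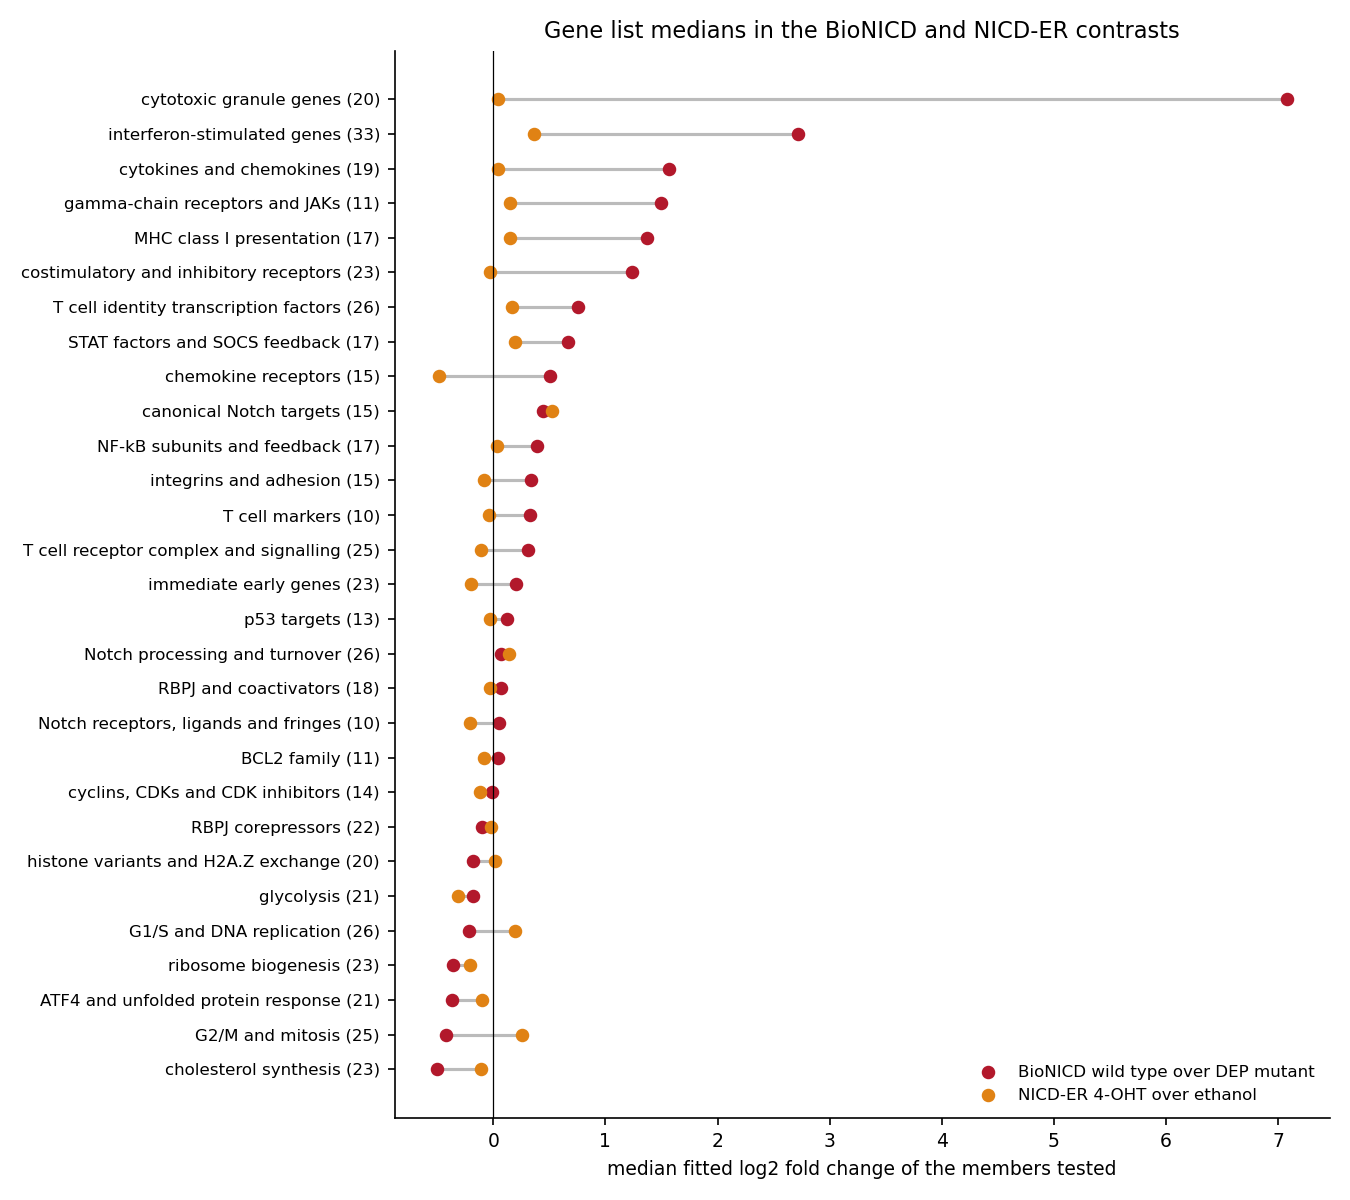
Median fitted log2 fold change of the tested members of each gene list for BioNICD wild type over DEP (red) and for NICD-ER 4-OHT over ethanol (orange), for lists with 10 or more members tested. Members that passed the filter only with the wild-type samples are included. Cytotoxic granule genes lie at 7.08 and 0.04 and interferon-stimulated genes at 2.72 and 0.36, while G2/M and mitosis lies at -0.42 and 0.26, on opposite sides of zero.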

How the data were processed

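Total RNA depleted of ribosomal RNA was sequenced from a stranded kit, per the labels' protocols. The deposited values are raw counts per gene, which the authors made with featureCounts 1.5.0 over exons of the UCSC mm9 annotation with no strand option, per the file headers, so overlapping and antisense genes cannot be told apart and close paralogues are uncertain. FastQC, Trimmomatic, STAR and DESeq2 are named without versions in the submitters' processing notes.

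From these counts, edgeR 4.0.16 (R 4.3.3) was run with TMM scaling, filterByExpr and a quasi-likelihood test on the 8 NICD samples, with 1 coefficient per group, so that the 4 NICD groups share the estimate of spread. P-values were adjusted by Benjamini-Hochberg over the 12499 genes tested of 24391, with a threshold of 0.05, and the steps were tested on simulated data. The SE of a log2 fold change was computed from its size and its F value. The difference between the BioNICD and the NICD-ER effect was tested in the same model. The 8 NICD samples held 16371601 to 48238324 counts.

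The comparison, its members and the gene lists were chosen with earlier results of these data known. Named were Notch1, the 3 markers, the 12 largest differences in each direction among genes of at least 5 CPM in the higher group with groups that did not overlap, up to 6 called members of each list, and any member of the canonical target, receptor, coactivator and corepressor lists. Chosen after their values were seen were Crx, Il2, Il2rg, Gzma, Irf7, Irf9, Isg15, Stat4, B2m, Dusp4, Dusp5, Dusp6, Fos, Fosb, Cd4, Cd5, Cd8a and the silent markers of other cell types. For genes with 0 counts in a group, the lower bound of the fold used a floor of 3 counts over the group, and for 1 to 3 counts a 95% exact interval of the pooled ratio was used. Bounds and intervals cover counting error only. Replicate numbers in the titles were not shown to pair the samples, since deviations of same-numbered samples correlated at -0.00779 between wild type and DEP and at 0.141 between 4-OHT and ethanol, each over a single pair of groups with 2 numbers. Alternatives were other scalings and filters, DESeq2 1.42.0, other sets of samples, the replicate block, single samples left out and thinning to the lowest total. Promoters came from RefSeq GRCm38.p6 and were matched by symbol. Single values of some list members are not reported here.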

Additional observations from a re-analysis of the deposited data

Results flagged for a closer look

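The effect of wild-type BioNICD over DEP differed from that of 4-OHT over ethanol in NICD-ER cells, by a test of the difference itself, for 6438 genes. For named genes the difference in log2 fold change was 8.44 for Il2ra, 6.99 for Gzmb, 6.18 for Dtx1, 3.26 for Hey1 and 2.04 for Hes1, each more positive with BioNICD, and -1.11 for Notch1 (edgeR quasi-likelihood test, adjusted p at most 1.54e-06).

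Of 20 genes examined for a control sample far from the other 5, 5 had one. The highest of the 6 CRISPR control samples had 0.94 CPM of Slit3, 0.188 CPM of Adam19, 0.0703 CPM of Csn1s1 and 0.0657 CPM of Prf1, and the lowest had 0.188 CPM of Fat1. Chance alone gives such a sample in about 1 of 20 groups, but that rate does not apply to Csn1s1, Prf1 and Adam19. These had 0 counts in every other control, so very few counts set a sample apart. The values of Slit3, Adam19 and Fat1 all come from control replicate 1. That sample also held 9.49 CPM of Col1a1, 11.3 CPM of Col1a2, 7.99 CPM of Col3a1 and 3.95 CPM of Dcn, genes of fibroblasts, against at most 0.189 CPM of each in the other 5 controls. The part of these in the values was not tested.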

How the results depend on the processing

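Of 14 alternatives, the fit of all 20 samples moved the count of called genes most. It called 4670 genes (2597 higher and 2073 lower), all of them also among the 8194 and in the same direction, 109 lower list members against 199, and 2112 genes with a difference from NICD-ER against 6438. With a mean of at least 1 CPM as the filter, 280 genes were at least 2-fold lower against 432 and 948 at least 2-fold higher against 1390. Leaving out 1 BioNICD sample gave 7236 to 7807 called genes, the lone sample being assumed to vary like the other groups. DESeq2 called 7301 and the 4 BioNICD samples alone 8003. The replicate block, whose numbers were not shown to pair the samples, gave 8406. Notch1, Dtx1, Gzmb and Il2ra kept direction and call under every alternative that was run. Genes that had not passed the test changed sign: Ccnd1 (-0.11 to 0.20 over single samples left out, -0.06 after thinning), Lfng (-0.15 to 0.03) and Stat4 (-0.06 to 0.01) over single samples left out, and Stat4 to 0.00 in the 4 BioNICD samples alone. In the fit of all 20 samples Aldoa, Bbc3, Bid, Dusp5, Ebp, Ep300, Fos, Fosb, Gata3, Jag1, Maml1, Pdia3, Runx1, Socs7, Tcf3, Tcf7, Tnfsf11, Tyms and Usp18 kept their direction but missed the threshold (adjusted p = 0.0539 to 0.543). The cause of these shifts was not tested. Depth limits genes with few counts in DEP, for which folds are bounds or wide intervals.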

Other observations

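The median log2 fold change of wild type over DEP lay between -0.17 and 0.12 on every chromosome. It was -0.17 on the X chromosome, where 78 of 415 genes tested were higher and 176 lower in wild type, and 0.12 on chromosome 14, where 183 of 416 were higher and 104 lower. With no filter on low counts the median of the X chromosome was -0.01. These values carry no test.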
